A study of Mus musculus with 4 samples.

Results

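Rmrp, Rpph1, Rn7sk, Terc and Gm26917 are 5 non-coding RNAs, taken by symbol from a table of 26207 genes measured by bulk RNA-seq in mouse T helper 2 (Th2) cells with and without dopamine. They were picked because their values differed between the groups of these libraries, so their group differences are described below with no test and no p-value. The libraries number 4: 2 from cells given phosphate-buffered saline (PBS) and 2 from cells given 10 µM dopamine, a catecholamine, with spleen as the stated source of both. Th2 cells are helper T cells that drive type 2 immunity. The sources used here give no strain, genotype, age, culture conditions or time of exposure. Nothing says that replicate libraries stem from different animals or cultures, so every spread below is only that between these libraries. Each adjusted p-value below draws on the spread of other genes too, but again only between these libraries. Total RNA was isolated with a spin-column kit and made into libraries with a stranded mRNA kit, a kind that selects polyadenylated RNA, so levels here are those of RNA carried through that selection.

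RNA polymerase III makes short RNAs such as tRNAs, 5S rRNA and a small set of nuclear RNAs, from promoters that for the latter group lie outside the transcribed part. Rmrp is the RNA of RNase MRP, a ribonucleoprotein that cuts the ribosomal RNA precursor and whose RNA gene, when mutated in people, causes cartilage-hair hypoplasia with T cell deficiency. Rpph1 is the RNA of RNase P, which trims the leader of precursor tRNAs and shares most of its proteins with RNase MRP. Rn7sk is the 7SK RNA, a scaffold on which HEXIM proteins hold the elongation kinase P-TEFb inactive. Terc is the template RNA of telomerase; in mammals it is transcribed by polymerase II, not polymerase III. Gm26917 is a long intergenic non-coding RNA model next to a ribosomal RNA model in the annotation, and nothing in the files names its polymerase. The name polymerase III RNAs therefore covers Rmrp, Rpph1 and Rn7sk only.

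The RNAs of Rmrp, Rpph1, Rn7sk and Terc are printed from GENCODE M21 transcripts, whole for Rmrp and the first 300 bases for the others, because their sequences show which reads could be shared with other gene models. Capitals mark the longest run that Rmrp and Rpph1 have in common (9 bases), the 3 copies of GATC in 7SK, a motif known in the HEXIM-binding part of the RNA, and in Terc the longest run (9 bases) complementary to the TTAGGG telomere repeat, the template letters.
Rmrp: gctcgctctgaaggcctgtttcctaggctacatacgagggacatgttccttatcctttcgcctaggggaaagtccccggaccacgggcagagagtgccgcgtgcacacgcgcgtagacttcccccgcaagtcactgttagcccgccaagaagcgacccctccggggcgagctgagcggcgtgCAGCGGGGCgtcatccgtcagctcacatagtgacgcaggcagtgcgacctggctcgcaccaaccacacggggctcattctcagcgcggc
Rpph1: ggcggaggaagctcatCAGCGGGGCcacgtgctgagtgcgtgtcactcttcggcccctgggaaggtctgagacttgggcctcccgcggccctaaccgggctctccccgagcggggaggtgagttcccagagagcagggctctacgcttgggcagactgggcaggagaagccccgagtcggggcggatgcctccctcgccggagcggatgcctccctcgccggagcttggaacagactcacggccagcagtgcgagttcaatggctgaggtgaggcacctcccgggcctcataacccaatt
Rn7sk: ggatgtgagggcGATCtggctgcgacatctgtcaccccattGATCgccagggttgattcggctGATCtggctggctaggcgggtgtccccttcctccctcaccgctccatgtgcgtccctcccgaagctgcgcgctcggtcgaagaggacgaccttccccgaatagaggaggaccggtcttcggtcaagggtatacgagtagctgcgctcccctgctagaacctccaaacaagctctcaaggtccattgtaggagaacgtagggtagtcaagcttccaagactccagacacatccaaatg
Terc: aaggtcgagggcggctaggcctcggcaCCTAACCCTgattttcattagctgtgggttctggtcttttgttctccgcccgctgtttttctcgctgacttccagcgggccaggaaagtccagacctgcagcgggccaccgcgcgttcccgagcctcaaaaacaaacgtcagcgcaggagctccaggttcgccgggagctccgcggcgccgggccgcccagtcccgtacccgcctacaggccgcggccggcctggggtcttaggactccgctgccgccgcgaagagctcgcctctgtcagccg
In mm10 (GRCm38) coordinates of GENCODE M21, Rmrp is the 271-base ribozyme model at chr4:43492788-43493058 on the minus strand, with a second record of the same symbol, a lincRNA at chr4:43492783-43493063. Rpph1, a ribozyme of 319 bases, is at chr14:50807449-50807767 on the minus strand. Rn7sk, a 331-base misc_RNA, is at chr9:78175303-78175633 and Terc, a 423-base misc_RNA, at chr3:96414437-96414859, both on the minus strand. Gm26917, a lincRNA of 3329 bases, is at chr17:39843013-39846341 on the plus strand. None of the 5 had a long run of A: the longest was 3 bases in Rmrp, 2 in Rpph1, 3 in Rn7sk, 5 in Terc and 4 in Gm26917. Rn7sk ended in 3 T, while the other models ended in none. GC content was 64.2% in Rmrp, 67.1% in Rpph1, 58.0% in Rn7sk, 67.1% in Terc and 69.1% in Gm26917. Aligned end to end, Rmrp and Rpph1 were identical at 51.8% of alignment columns.

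Upstream letters were read from RefSeq windows (GRCm38.p6) of the divergent neighbours of Rmrp, Rpph1 and Rn7sk, since no window of the RNAs themselves was used here. The motif searched was the octamer ATTTGCAT on either strand, known from snRNA-type promoters, where the factor Oct-1 binds it. Positions are counted back from the RefSeq start of each RNA, and the octamer is in capitals on the strand of the RNA.
Rmrp upstream: gtttaagcaatATTTGCATaaaccacgccc
Rpph1 upstream: gggtagagcgcATGCAAATtacgcgctgtg
The Rmrp stretch is chr4:43493263-43493292, minus strand, with the octamer starting at -222. The Rpph1 stretch is chr14:50807849-50807878, minus strand, with the octamer, as its reverse complement ATGCAAAT, starting at -96, within the first exon of the longest Parp2 model. The Rmrp window searched ran from -355 to -56 and the Rpph1 window from -194 to -1, and each held 1 octamer. The Rn7sk window, from -330 to -31, held 0, which says only that these exact letters are not there. Across all windows of this RefSeq table, 250 bases before to 50 after a gene's start, 570 of 32851 (1.74%) held the octamer.

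Recovered read totals over genes were 5717408 for PBS A and 13241168 for PBS B, then 14167357 for dopamine A and 11492182 for dopamine B. The letters only name columns. Values are the authors' normalized read counts, and log2 differences are dopamine minus PBS on the scale log2(value + 1). Replicate libraries varied beyond counting noise: the chi-square over genes, per degree of freedom, was 2.37 between the PBS libraries and 3.43 between the dopamine libraries. Helper T cell markers summed to 23848 to 25269 normalized counts with PBS and 26926 to 27561 with dopamine (4 of 8 called higher, 1 lower). Calls are by limma at an adjusted p below 0.05. Of all genes it called 14.3% higher and 7.0% lower, and of genes averaging 100 normalized counts or more 39.1% and 7.90%. Most of the helper T cell sum came from genes of T cells at large, such as Trbc2, Trac and Cd4. Trac ran against the sum, at 5174 and 5457 with PBS and 4241 and 4566 with dopamine. Of the Th2 genes, Il4 had 178 and 151 with PBS and 784 and 723 with dopamine, and Gata3 243 and 231 with PBS and 207 and 241 with dopamine. Markers of other cells moved too: basophil and mast cell markers summed to 1497 to 1804 with PBS and 433 to 521 with dopamine (4 of 4 lower), and platelet markers to 1307 to 1493 and 385 to 434 (4 of 4 lower). Red cell markers summed to 407 to 525 and 158 to 194 (2 of 2 measured lower; Hba-a1 and Hbb-bs were not among the rows used), myeloid markers to 121 to 128 and 38.6 to 53.4 (2 of 4 lower), and B cell markers to 103 to 129 and 313 to 322 (3 of 4 higher). Their part in the values of the 5 RNAs was not tested, and in bulk libraries fewer cells of a type and less RNA per cell cannot be told apart.

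The RNA of RNase MRP showed the widest difference of the 5. Rmrp stood at 508 and 496 normalized counts with PBS (A, B) and at 1751 and 2067 with dopamine (A, B). The mean went from 502 ± 8.63 to 1909 ± 223 (SD, n = 2 per group), a log2 difference of 1.92 or 3.79-fold. Both dopamine libraries lay far above both PBS libraries. The pooled spread between libraries of a group was 0.12 on the log2 scale. In shares of reads, Rmrp took 0.00523% in PBS A (95% exact Clopper-Pearson interval 0.00465% to 0.00586%), 0.00489% in PBS B (0.00452% to 0.00528%), 0.0160% in dopamine A (0.0154% to 0.0167%) and 0.0185% in dopamine B (0.0177% to 0.0193%). Such intervals cover counting error only, since the reads carry no molecular identifiers. The intervals of the PBS libraries overlapped one another, and those of the dopamine libraries did not.

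The RNA of RNase P was also more abundant with dopamine. Rpph1 had 21263 and 22901 normalized counts with PBS (A, B) and 40275 and 48223 with dopamine (A, B). The mean was 22082 ± 1159 with PBS and 44249 ± 5620 with dopamine (SD, n = 2), a log2 difference of 1.00 or 2.00-fold, with no overlap of the groups. It ranked 14th of 26207 genes by mean value and took 0.219% of reads in PBS A (interval 0.215% to 0.223%), 0.226% in PBS B (0.223% to 0.228%), 0.369% in dopamine A (0.365% to 0.372%) and 0.432% in dopamine B (0.428% to 0.436%). The difference was smaller than that of Rmrp. Rmrp per 100 Rpph1 was 2.39 and 2.16 in the PBS libraries and 4.35 and 4.29 in the dopamine libraries, a log2 difference of 0.92 that no scaling of whole libraries can alter.

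The 7SK RNA went the other way and by little. Rn7sk had 231132 and 239911 normalized counts with PBS (A, B) and 212593 and 205877 with dopamine (A, B). The mean was 235521 ± 6207 with PBS and 209235 ± 4749 with dopamine (SD, n = 2), a log2 difference of -0.17 or 0.888-fold. Both dopamine libraries were below both PBS libraries, with a pooled spread of only 0.035 on the log2 scale. Rn7sk ranked 2nd of all genes by mean value, after the mitochondrial rRNA mt-Rnr2. It took 2.38% of reads in PBS A (interval 2.37% to 2.39%), 2.36% in PBS B (2.36% to 2.37%), 1.95% in dopamine A (1.94% to 1.95%) and 1.84% in dopamine B (1.84% to 1.85%). The 3 polymerase III RNAs together made up 2.60% of reads in each PBS library, and 2.33% in dopamine A, with dopamine B lower still. That order holds for shares of reads, while the summed normalized counts of the 3 overlapped between the groups.

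The telomerase RNA was sparse and close to level. Terc had 66.2 and 54.4 normalized counts with PBS (A, B) and 69.4 and 68.9 with dopamine (A, B), from 39, 71, 90 and 71 reads. The mean was 60.3 ± 8.38 with PBS and 69.2 ± 0.346 with dopamine (SD, n = 2), a log2 difference of 0.20. Its groups did not overlap, but the gap between the PBS libraries, 0.28 on the log2 scale, exceeded the gap between the groups. Without PBS A the log2 difference was 0.34 and without PBS B 0.06. As shares of reads the order broke down: Terc took 0.000682% in PBS A (interval 0.000485% to 0.000932%), 0.000536% in PBS B (0.000419% to 0.000676%), 0.000635% in dopamine A (0.000511% to 0.000781%) and 0.000618% in dopamine B (0.000483% to 0.000779%). The highest share was that of a PBS library, all intervals overlapped, and a difference was not detectable at this depth.

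Gm26917, the model beside a ribosomal RNA gene, was more abundant with dopamine. It had 17602 and 19400 normalized counts with PBS (A, B) and 38047 and 43874 with dopamine (A, B). The mean was 18501 ± 1271 with PBS and 40961 ± 4120 with dopamine (SD, n = 2), a log2 difference of 1.14 or 2.21-fold, again with no overlap. The model ranked 16th of all genes by mean value, and its share of reads was 0.181% in PBS A (interval 0.178% to 0.185%), 0.191% in PBS B (0.189% to 0.194%), 0.348% in dopamine A (0.345% to 0.351%) and 0.393% in dopamine B (0.390% to 0.397%). Rpph1 per 100 Gm26917 was 121, 118, 106 and 110 in the order PBS A, B, dopamine A, B. Both dopamine ratios lay below both PBS ratios, with a log2 difference of -0.15.

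**Figure D1:**
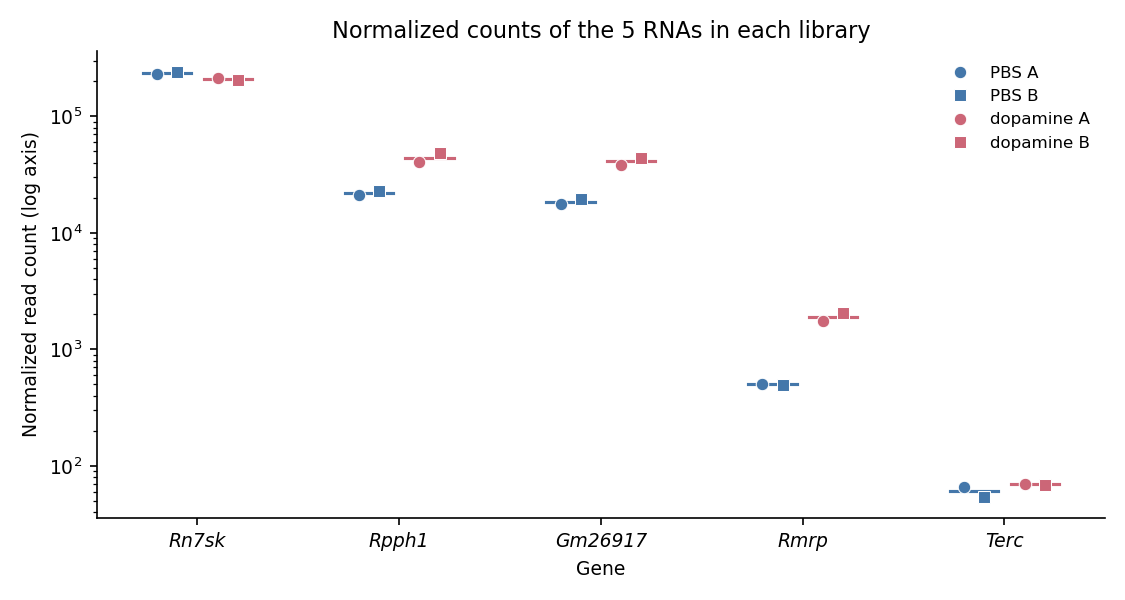
Normalized read count (log axis) of each of the 5 RNAs in PBS A and PBS B (blue) and dopamine A and dopamine B (red), with circles for A, squares for B and a line at each group's mean. Rmrp, Rpph1 and Gm26917 sit well above their PBS points in both dopamine libraries, while Rn7sk lies slightly below and the Terc points nearly meet.

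Of the 5, 4 had both dopamine libraries above both PBS libraries and 1, Rn7sk, had both below. Over all 26207 genes, 28.5% had such a gap upward and 30.4% downward, and since the members were picked from this contrast nothing is read from the count. An exact permutation test of 2 libraries against 2 cannot give a p below 0.333. The limma test over all genes (adjusted p under 0.05) called 14.3% of genes higher and 7.0% lower, 21.3% in all, and edgeR on the recovered reads 18.2%, 15.8% and 34.0%. Among the 8492 abundant genes, those averaging 100 normalized counts or more, limma called 39.1% higher and 7.90% lower, and their median log2 difference was 0.20, against -0.08 for all genes. Scaling the libraries on those 8492 genes put that median at 0.00 and that of all genes at -0.26, and limma then called 6.90% of genes higher, 12.1% lower and 19.0% in all. On that scale the log2 difference was 1.73 for Rmrp, 0.95 for Gm26917, 0.80 for Rpph1, 0.01 for Terc and -0.37 for Rn7sk. The order of the 5 did not change, but Terc had no visible difference left and the gap of Rn7sk grew. The authors' deposited table gives log2 fold changes of 1.93 for Rmrp (standard error 0.113), 1.15 for Gm26917 (0.0773), 1.00 for Rpph1 (0.140), 0.22 for Terc (0.346) and -0.17 for Rn7sk (0.0571).

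**Figure D2:**
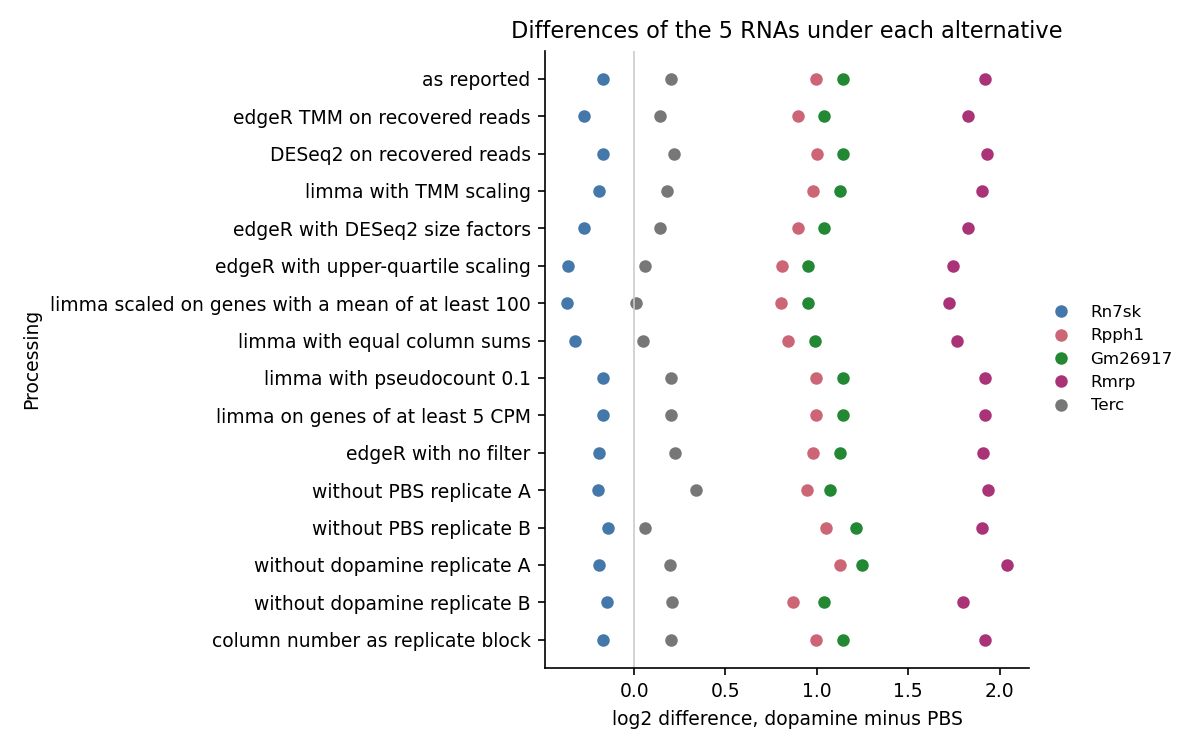
Log2 difference, dopamine minus PBS, of each of the 5 RNAs (colours) under every processing tried (one line each). Rmrp stays between 1.73 and 2.04 and Rn7sk between -0.37 and -0.14, while Terc runs from 0.01 to 0.34.

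Ratios within a library do not depend on how libraries are scaled. Rmrp per 100 Rn7sk was 0.220 and 0.207 with PBS and 0.824 and 1.00 with dopamine, a log2 difference of 2.09. Rpph1 per 100 Rn7sk was 9.20 and 9.55 with PBS and 18.9 and 23.4 with dopamine (log2 difference 1.17), and Gm26917 per 100 Rn7sk was 7.62 and 8.09 with PBS and 17.9 and 21.3 with dopamine (1.32). In all of these the dopamine libraries lay above the PBS libraries, so each of the 3 was higher relative to 7SK in both libraries. Terc per 100 Rn7sk was 0.0287 and 0.0227 with PBS and 0.0327 and 0.0335 with dopamine, a log2 difference of 0.38.

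**Figure D3:**
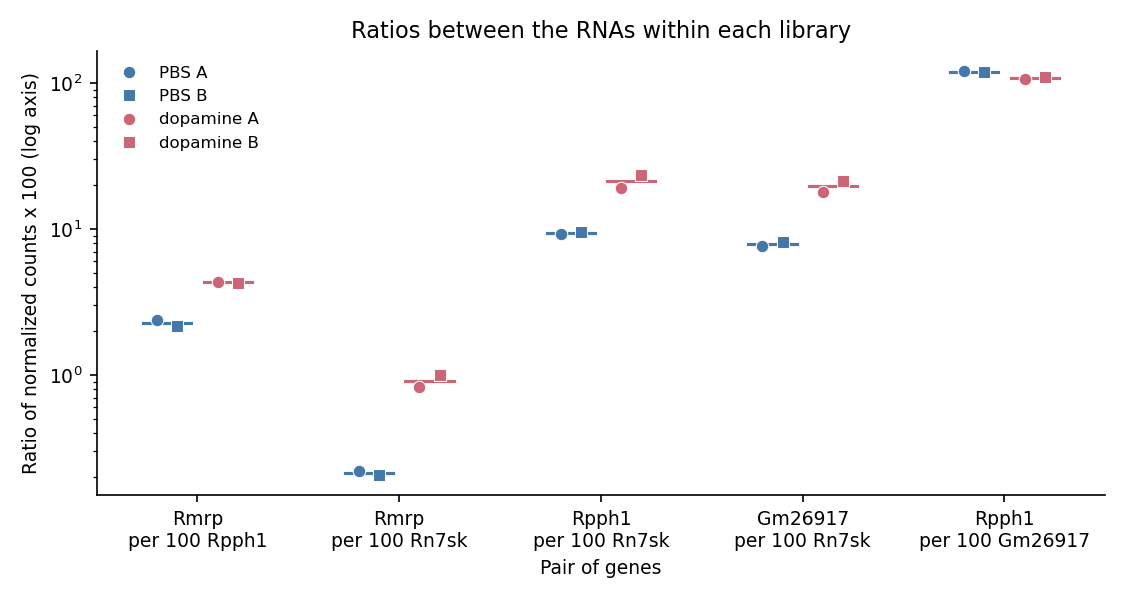
Ratio of normalized counts, times 100 (log axis), for 5 pairs of the RNAs in each library, with PBS in blue, dopamine in red and a line at each group's mean. Ratios to Rn7sk and the ratio of Rmrp to Rpph1 are higher in both dopamine libraries, while Rpph1 per 100 Gm26917 stays between 106 and 121.

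Levels can be compared between genes only per length. In normalized counts per kilobase, Rn7sk led with 620110 to 722622 across the libraries, followed by Rpph1 with 65424 to 148378, Gm26917 with 5287 to 13179, Rmrp with 1803 to 7517 and Terc with 137 to 175. The ranges of Gm26917 and Rmrp overlapped over all 4 libraries, but within each library Gm26917 was above Rmrp, as in PBS A with 5287 against 1847 and in dopamine B with 13179 against 7517. The other neighbours in this order were apart in every library.

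Libraries of one group were also compared with each other, a measure that the choice of members did not use. Between dopamine A and dopamine B, Rpph1 differed by 0.26, Rmrp by 0.24 and Gm26917 by 0.21 on the log2 scale, each higher in dopamine B. Of the genes with a similar mean, 100% of 40 lay closer for Rpph1, 96.1% of 2853 for Rmrp and 91.7% of 48 for Gm26917. The PBS pair showed less: PBS B minus PBS A was 0.11 for Rpph1, -0.04 for Rmrp and 0.14 for Gm26917. Rn7sk differed by 0.05 in the PBS pair and by -0.05 in the dopamine pair. Among the 5, Rpph1, Rmrp and Gm26917 thus varied most between the dopamine libraries, while Terc varied most between the PBS libraries.

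By distance between centred log2 values over the 4 libraries, among 8488 other abundant genes, the genes nearest to Rmrp were Sema7a (distance 0.107), Ifng (0.165) and Slc39a4 (0.173), which encode a membrane-anchored semaphorin, interferon gamma and a zinc transporter. Nearest to Rpph1 were Fam213a (0.0386), Cd6 (0.0573) and Mrps12 (0.0764), and nearest to Gm26917 were Ptger2 (0.0717), Tgif1 (0.0777) and Irf8 (0.107). Cd6 encodes a T cell surface receptor, Ptger2 a prostaglandin E2 receptor and Irf8 an interferon regulatory factor. Mdm4 (0.00884), Elf1 (0.0186) and Gemin8 (0.0226) were nearest to Rn7sk, and Dnajc27 (0.0331), Tmem237 (0.0387) and Cwf19l1 (0.0417) to Terc. Sema7a ran at 348, 340, 1153 and 1296 normalized counts and Mdm4 at 2339, 2419, 2162 and 2087 in the order PBS A, B, dopamine A, B. With 4 points a pattern this close is a description of these libraries only.

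Of the genes beside Rmrp, Rpph1, Rn7sk and Terc that were in the table, all named here, 1 was called, Parp2. Among all genes, 21.3% were called. Ccdc107 overlaps the Rmrp lincRNA record by 164 bases on the opposite strand and had 166 and 208 normalized counts with PBS and 221 and 221 with dopamine (log2 difference 0.25, SE 0.14, limma adjusted p = 0.202). The sources used here do not say whether counting used strand, so Rmrp and Ccdc107 reads may have been mixed. Sit1 (0.15) and Arhgef39 (-0.33), the next genes on either side, were not called. Parp2, a poly(ADP-ribose) polymerase gene that starts 73 bases from Rpph1 and runs the other way, had 785 and 827 with PBS and 1024 and 1015 with dopamine. It rose by 0.34 (SE 0.09, limma adjusted p = 0.00246), or 0.14 with libraries scaled on abundant genes. Ccnb1ip1, whose model covers 284 bases of Rpph1 on the same strand, held 3.06 to 6.80 normalized counts in every library, so few reads were given to it. C920006O11Rik, 280 bases from Rn7sk and divergent, had 39.1, 42.9, 44.7 and 42.7, and Ick on the other side had a log2 difference of -0.40 (limma adjusted p = 0.121). Gm21960, next to Terc, was below 10 in every library.

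Near-identical copies can share reads with the RNAs, and the sources used here do not say how the counting placed such reads. For Rn7sk, 12 other gene models matched at 90% or more over at least 100 bases, and the 8 in the table summed to 2614 and 2088 normalized counts with PBS and 3266 and 3168 with dopamine. In contrast to Rn7sk itself, 5 of these 8 were called higher and 0 lower, with a median log2 difference of 0.50. Among all genes, 14.3% were called higher and 7.0% lower. Gm24447, identical to Rn7sk over 241 bases, had 1145 and 976 with PBS and 1467 and 1335 with dopamine (log2 difference 0.40, SE 0.08, limma adjusted p = 0.000242). Gm26315, identical over 235 bases, differed by 0.21 and was not called. Both were named after their values were seen. Even together the copies held little beside Rn7sk, whose lowest value was 205877. For Rpph1, Rprl3, an RNase P-like RNA gene 94.1% identical over 204 bases, had 83.2 and 135 with PBS and 352 and 379 with dopamine. Rprl3 rose by 1.77 (SE 0.15, limma adjusted p = 9.06e-13). Terc and Gm26917 had 0 such copies.

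CT010467.1, a ribosomal RNA model that lies 11 bases past Gm26917 on the other strand (chr17:39846353-39848827), went in the same direction as Gm26917. It had 673 and 781 normalized counts with PBS (A, B) and 1199 and 1395 with dopamine (A, B), with no overlap. It rose by 0.83 (SE 0.09, limma adjusted p = 5.09e-10). The letters GGATCATTA, known from the end of 18S rRNA, occurred 0 times in Gm26917 and 1 time in CT010467.1 read on its opposite strand, that is, on the strand of Gm26917. Gm26917 ends 11 bases before CT010467.1, so the 0 does not show whether Gm26917 is part of an rRNA precursor, which was not tested. Of 7 models that had been listed as related to rRNA and were in the table, 3 rose, 1 fell and 3 were not called, with a median of 0.83. Among all genes, 14.3% were called higher and 7.0% lower. Gm23935, annotated as a miRNA, rose from 124 ± 47.9 to 300 ± 0.506 (SD, n = 2; log2 difference 1.32), and Gm24187, also annotated as a miRNA, by 1.59 from under 13 normalized counts. Gm26870, a lincRNA on chromosome 9, fell by 1.37, from 392 and 303 to 160 and 111. Lars2, which encodes the mitochondrial leucyl-tRNA synthetase, and Gm15564, an antisense model, differed more between columns than between treatments, overlapped between the groups and were not called: Lars2 stood at 185 in PBS A, 1217 in PBS B, 414 in dopamine A and 1554 in dopamine B, and Gm15564 at 27.2, 142, 67.9 and 186. Both were named after their values were seen. Gm26917 was also higher in the libraries marked B, but only by 0.14 with PBS and 0.21 with dopamine on the log2 scale. Without PBS B, or without dopamine A, 5 of the list were called higher.

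**Figure D4:**
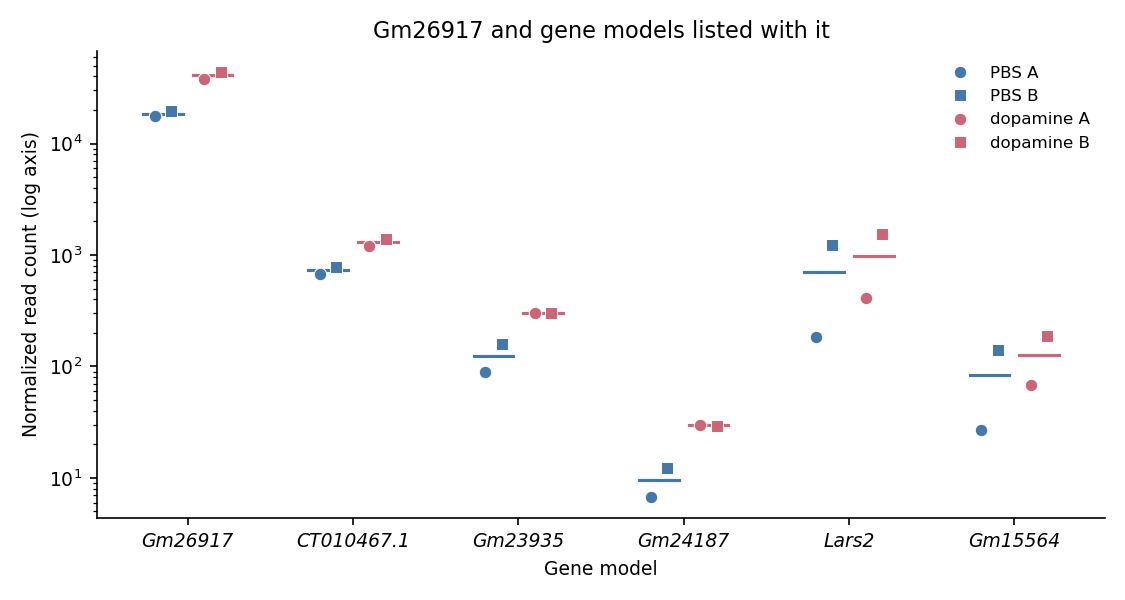
Normalized read count (log axis) of Gm26917, the adjoining rRNA model CT010467.1 and 4 models listed with them, in PBS A and PBS B (blue) and dopamine A and dopamine B (red), with a line at each group's mean. Gm26917, CT010467.1, Gm23935 and Gm24187 are higher in both dopamine libraries, while Lars2 and Gm15564 are higher in both libraries marked B. Gm26870, called lower, and Gm37357, not called but lower on average with dopamine, were listed too and are not drawn.

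Protein genes of RNase MRP and RNase P were mostly higher. Of 11 genes, 8 rose, 0 fell and 3 were not called, with a median log2 difference of 0.46, or 5 of 11 and a median of 0.27 with libraries scaled on abundant genes. Pop7 rose from 135 ± 8.14 to 253 ± 34.2 normalized counts (SD, n = 2; log2 difference 0.89, SE 0.14, limma adjusted p = 2.43e-06). Rpp21 rose by 0.68, Rpp14 by 0.60 and Pop5 by 0.51, of which Pop5 was no longer called without PBS A. Pop1, the largest protein of both enzymes, rose by 0.30 from 743 ± 21.05 to 918 ± 32.5, a call lost under 5 alternatives, among them leaving out PBS B (0.28) or dopamine B (0.27) and scaling on abundant genes (0.11). Each of these changes was smaller than the difference of 1.92 seen for Rmrp. For comparison, 14.3% of all genes and 39.1% of abundant genes were called higher. With libraries scaled on abundant genes, 6.90% of all genes were called higher.

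The subunits of polymerase III showed the same direction. The shares called higher were 14.3% of all genes and 39.1% of abundant genes, and 6.90% of all genes with libraries scaled on abundant genes. Of the 18 subunits, 14 rose and 0 fell, with a median of 0.49. The count was 9 of 18 with libraries scaled on abundant genes, and also 9 without dopamine B. Polr3d rose from 238 ± 14.6 to 432 ± 22.4 (SD, n = 2; log2 difference 0.86, SE 0.11, limma adjusted p = 8.71e-08). Polr3e rose by 0.67, and Polr2f and Polr1d, which the enzyme shares with other polymerases, by 0.79 and 0.60. The 4 not called, Polr3c, Polr3g, Polr3gl and Polr3k, are not among the shared subunits and were named after their values were seen. Polr3a, the largest subunit, rose by 0.41 from 633 ± 3.37 to 845 ± 80.4, but was not called without dopamine B (0.32) or when scaled on abundant genes (0.22).

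Of 10 genes for factors that place polymerase III on the promoters of Rmrp, Rpph1 and Rn7sk, 1 was called higher and 0 lower. Most of the 10 were abundant, and 39.1% of abundant genes were called higher and 7.90% lower, beside 14.3% and 7.0% of all genes. The median was 0.18, close to the median of 0.20 among abundant genes. The 1 called was Bdp1, which rose by 0.23 from 2049 ± 43.2 to 2397 ± 29.0 (SE 0.07, limma adjusted p = 0.015). Leaving out any 1 library, whichever of the 4 it was, gave a count of 0, although the difference of Bdp1 stayed at 0.21 to 0.25. A count of 0 also came from scaling on abundant genes, where the median was -0.01. Snapc4, the largest subunit of the snRNA-activating complex, had a log2 difference of 0.27 (SE 0.15, limma adjusted p = 0.214), and Brf2, a TFIIB-like factor particular to these promoters, 0.51 from 33.3 ± 3.84 to 48.1 ± 10.2 (SE 0.26, adjusted p = 0.164, limma). For the tRNA and 5S promoters, 3 of 8 factor genes rose and 0 fell, beside 39.1% and 7.90% of abundant genes, with a median of 0.23. The 3 were Gtf3c4 (0.36), Gtf3c6 (0.35) and Gtf3c1 (0.27). That count fell to 0 without PBS A or without dopamine B, and to 0 with libraries scaled on abundant genes.

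Regulators of the polymerase were split. Of 8 genes, 2 rose and 1 fell, with a median of 0.05, beside 39.1% and 7.90% of abundant genes. With libraries scaled on abundant genes, 2 rose and 3 fell, with a median of -0.15, beside 6.90% and 12.1% of all genes. Myc, a transcription factor known to raise polymerase III output, rose from 786 ± 49.3 to 1256 ± 122 (SD, n = 2; log2 difference 0.67, SE 0.09, limma adjusted p = 4.20e-08). Ssb, the La protein that binds the U-rich end of new polymerase III transcripts, rose by 0.38 from 4246 ± 47.4 to 5554 ± 482. Rb1, a repressor of the polymerase, fell by 0.31 from 1260 ± 11.9 to 1016 ± 71.4, a call lost without PBS A (-0.32), without PBS B (-0.30) or without dopamine B (-0.24). Maf1, the repressor that acts when nutrients are short, stood at 698 ± 25.5 and 714 ± 36.6, a log2 difference of 0.03 that became -0.16 with libraries scaled on abundant genes.

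Partners of 7SK showed a mixed picture. Most of them were abundant, and of all abundant genes 39.1% were called higher and 7.90% lower, with a median of 0.20. Of the 7 genes of the 7SK particle and P-TEFb, 3 rose and 0 fell, with a median of 0.16, and the count was 1 without PBS A, 1 without dopamine B and 1, with a median of -0.04, with libraries scaled on abundant genes. Larp7, which guards the 3' end of 7SK, rose from 1002 ± 52.4 to 1377 ± 20.2 (SD, n = 2; log2 difference 0.46, SE 0.08, limma adjusted p = 1.90e-05). Hexim1, the inhibitor that 7SK presents to P-TEFb, rose by 0.40 from 518 ± 52.3 to 684 ± 61.5, a call lost under 4 alternatives, among them leaving out PBS A (0.30) or dopamine B (0.31). Mepce, which caps the 5' end of 7SK, stood at 988 ± 0.994 and 994 ± 1.02, a log2 difference of 0.01 that became -0.19 with libraries scaled on abundant genes. The kinase gene Cdk9 rose by 0.26 with an adjusted p of 0.0484 (limma) and lost its call under 12 of the alternatives, among them leaving out PBS A, PBS B or dopamine B.

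Among 11 genes that release P-TEFb or join it in elongation complexes, 5 rose and 1 fell, with a median of 0.12. Of abundant genes, 39.1% were called higher and 7.90% lower. With libraries scaled on abundant genes 4 rose and 4 fell, with a median of -0.08, beside 6.90% and 12.1% of all genes. Ell2, an elongation factor, rose from 204 ± 40.4 to 470 ± 18.1 (SD, n = 2; log2 difference 1.22, SE 0.12, limma adjusted p = 9.14e-11). Ddx21, a nucleolar helicase, rose by 0.63 from 4931 ± 261 to 7602 ± 160, Srsf2 by 0.46 and Ppm1g by 0.44. The 1 that fell was Mllt3, by 0.35, named after its value was seen.

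Genes of the telomerase particle were mostly higher, while Terc was close to level. Of 14 genes of the particle and of Terc maturation, 9 rose and 0 fell, with a median of 0.55. Among all genes 14.3% were called higher, and among abundant genes 39.1%. With libraries scaled on abundant genes, 8 of the 14 rose and 1 fell, with a median of 0.35. On that scale 6.90% of all genes were called higher and 12.1% lower. Dkc1, the dyskerin pseudouridine synthase that binds the H/ACA end of Terc, rose from 2052 ± 42.9 to 3310 ± 40.7 (SD, n = 2; log2 difference 0.69, SE 0.07, limma adjusted p = 4.60e-11). Its partners Nhp2 and Nop10 rose by 0.74 and 0.62, and the ATPase gene Ruvbl1 by 0.57. Wrap53, which takes the RNA to Cajal bodies, rose by 0.87 from 77.0 ± 10.3 to 141 ± 12.5. Tert, the catalytic subunit, ran against them at 57.6 ± 9.89 with PBS and 36.9 ± 5.57 with dopamine, a log2 difference of -0.62 (SE 0.24, limma adjusted p = 0.0591). It was called lower under 7 of the alternatives, with differences of -0.81 to -0.62. Dkc1, Nhp2 and Nop10 also serve the H/ACA snoRNAs and are not particular to telomerase.

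**Figure D5:**
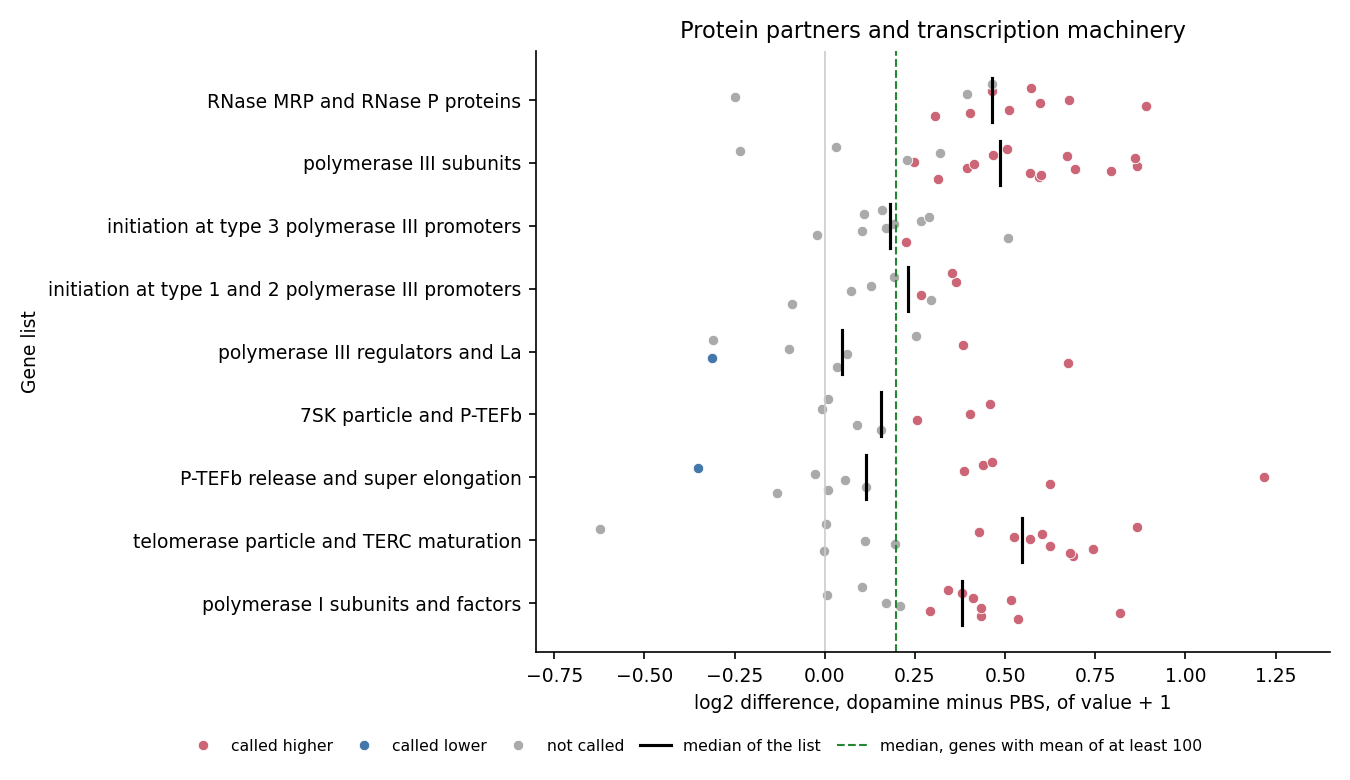
Log2 difference, dopamine minus PBS, on the scale log2(value + 1), of each gene in 9 lists of protein partners and transcription machinery (rows), coloured by the limma call, with a black bar at each list's median and a dashed line at 0.20, the median of abundant genes. The bars of the RNase MRP and RNase P proteins, polymerase III subunits and telomerase genes lie right of that line, and those of the 7SK particle and the regulators lie left of it.

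The polymerase I genes, whose enzyme makes the large rRNA precursor, were 9 of 13 higher and 0 lower, with a median of 0.38. With libraries scaled on abundant genes, 5 of 13 were higher, beside 6.90% of all genes. As reported, 14.3% of all genes and 39.1% of abundant genes were called higher. Polr1b rose from 640 ± 59.9 to 1130 ± 73.5 (SD, n = 2; log2 difference 0.82, SE 0.09, limma adjusted p = 8.16e-10). Rrn3 rose by 0.43, Taf1d by 0.41 and Ubtf, the upstream binding factor of the rDNA promoter, by 0.34, a call that was lost with libraries scaled on abundant genes (0.15).

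Other small non-coding RNAs were matched by symbol, together with microRNA genes and the long host transcripts of microRNAs. Of these 128 genes, 19 rose and 0 fell, with a median of 0.58, and the share that rose was near the 14.3% of all genes. Many of them held few reads. The filter of edgeR left 59 of the 128, of which 16 rose and 0 fell, beside 18.2% and 15.8% of all genes that edgeR tested. MicroRNA and host genes made up 54 of the 128 and 5 of the 19, and Mir142hg, Mir155hg, Mir17hg and Mir22hg among these 5 are host transcripts. The other, Mir6236, had 34.0 in PBS A, 135 in PBS B, 119 in dopamine A and 238 in dopamine B, so its groups overlapped. The 3 genes of 7SL, the polymerase III RNA of the signal recognition particle, all rose: Rn7s6 by 1.59, Rn7s1 by 1.42 and Rn7s2 by 1.21, from 43.7 to 59.0 normalized counts in the PBS libraries to at least 81.8 in the dopamine libraries. Near-identical copies may have split their reads. As with Rmrp and Rpph1, dopamine B was above dopamine A, at 170 against 108 for Rn7s1. Of the Y RNAs, also polymerase III products, Rny3 rose by 0.73, while Rny1 had 17.0, 10.7, 10.8 and 26.2 and was not called. Of 55 snoRNA and scaRNA genes 8 rose, among them Snora57 by 1.58, and of 9 Rnu genes 1, Rnu3a, rose by 1.23 from 72.7 ± 17.3 to 170 ± 7.40. Of 11 listed long non-coding RNAs 6 rose and 0 fell, with a median of 0.20. Among all genes 14.3% were called higher, and among abundant genes 39.1%. The 6 included the snoRNA hosts Gas5 (0.64), Snhg12 (0.70), Epb41l4aos (0.61) and Snhg1 (0.53). Malat1, an abundant nuclear RNA, rose by 0.20 from 25906 ± 573 to 29830 ± 3709 (SD, n = 2; limma adjusted p = 0.00701), and differed by 0.00 with libraries scaled on abundant genes. Neat1 differed by -0.05 and was not called. Malat1, Neat1, Rn7s1, Rn7s2, the Y RNAs, Mir6236 and the microRNA hosts were named after their values were seen.

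Histone mRNAs of replication-dependent genes, which like the polymerase III RNAs as a rule lack a poly(A) tail, were measured with the same kit. The genes were matched by symbol, and whether each makes transcripts without a tail was not checked. Of 60 matched genes, 44 rose and 1 fell, with a median of 0.58. Beside them, 14.3% of all genes and 39.1% of abundant genes were called higher. With libraries scaled on abundant genes, 35 rose and 1 fell, beside 6.90% and 12.1% of all genes. Hist1h2bc rose by 0.93, Hist1h4a by 0.91, Hist4h4 by 0.89 and Hist1h2bj by 0.85. The 1 that fell was Hist2h2be, named after its value was seen, and leaving out any 1 of the 4 libraries left 0 that fell. The part that tail-less RNA carried through the kit has in the values of Rmrp, Rpph1 and Gm26917 was not tested.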

How the data were processed

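Bulk RNA-seq of 4 libraries (2 PBS, 2 dopamine, grouped by title) was analysed from 1 deposited table. The build mm10 and the tools TopHat2 2.0.13, HTSeq 0.6, R 3.6.2, DESeq2 and FastQC 0.11.2 are named, without roles, per the submitters' processing notes. The sources used here do not give the annotation or strand setting. Per the file headers, the table holds the authors' DESeq2 log2 fold change with its standard error, a Wald score and p-values. The library columns are a signal: read counts that the authors divided by 1 size factor per library (0.589, 1.31, 1.30 and 1.03, from the values). Reads were recovered from them: 100% of values were whole within 0.01. Columns carry numbers 2 and 3 where titles have 1 and 2, so columns were matched to groups only.

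The test was limma 3.58.1 in R 4.3.3, 2-sided and trended by mean, run on log2(value + 1) of all 26207 genes without a filter, with Benjamini-Hochberg adjustment and a threshold of 0.05. The pseudocount shrinks the differences of low genes. limma drew the variance of each gene toward that of genes of similar mean, with 42.4 prior degrees of freedom. Its p-values therefore reflect mostly that shared variance and not the spread of the gene's own libraries. edgeR 4.0.16 (quasi-likelihood, TMM) on the recovered reads called 5219 of 15329 genes, of which 4345 were among limma's 5577 in the same direction. The plan allowed for raw counts, and the values proved to be normalized. DESeq2 1.42.0 and the other alternatives are given in the closing section. Tests were also run on simulated data with the same extra spread for all genes and balanced changes. That run cannot check the choice of scaling. The 5 RNAs and 13 gene lists were chosen with earlier results of these data known, and the lists were written from memory. Named genes are the 5 RNAs, up to 4 called genes per list with the smallest p, core partners whatever their p, the 3 nearest in pattern, and adjoining genes.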

Additional observations from a re-analysis of the deposited data

How the results depend on the processing

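None of the 5 RNAs changed direction under any alternative run. Upper-quartile scaling (edgeR), scaling on abundant genes and equal column sums (both limma) gave 1.74, 1.73 and 1.77 for Rmrp, 0.81, 0.80 and 0.84 for Rpph1, -0.36, -0.37 and -0.32 for Rn7sk, 0.061, 0.0093 and 0.050 for Terc, and 0.95, 0.95 and 0.99 for Gm26917. For Rn7sk, edgeR gave -0.28 with TMM and -0.27 with DESeq2 size factors. Over all genes, DESeq2 called 3273, of which 715 lower. With those 3 scalings 2013, 1807 and 2129 genes were called higher and 3149, 3176 and 2806 lower, so higher genes made up 39.0%, 36.3% and 43.1% of calls, against 67.1% as reported, 53.5% with edgeR TMM, 53.7% with edgeR and DESeq2 size factors, 78.2% with DESeq2 and 81.3% with a filter at 5 CPM, which left 894 lower. Leaving out 1 library gave 2914 to 4299 calls, 2152 to 3201 higher and 762 to 1389 lower. With the column number as a replicate block 6999 genes were called (4627 higher, 2372 lower), the 5 differences did not change, and calls higher went from 3 to 5 of the rRNA-related models and from 1 to 2 of the factors at type 3 promoters. Same-numbered columns deviated together only weakly (r = 0.21 over 8492 genes, which are not independent) and 2 pairs share only a number. Of 54 named partner genes and models, 41 kept their call under every alternative and 0 reversed. Of the 3 nearest genes, 2 (for Rn7sk, 3) stayed with a minimum mean of 20. The causes of these shifts were not tested. Of the 5 RNAs, Terc has the widest counting error, with 39 to 90 reads per library.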

Other observations

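Gene types were also counted by GENCODE M21 annotation, and they overlap in part with the lists and copies above. Of 131 snoRNA models 22 rose and 0 fell, of 80 snRNA models 8 rose and 0 fell, and of 42 misc_RNA models, the type that holds Rn7sk and Terc, 12 rose and 1 fell. These are 16.8%, 10.0% and 28.6% higher, beside 14.3% of all genes. The misc_RNA models include Rn7sk, Terc and the 8 measured copies of Rn7sk, of which 5 rose, so that count partly repeats values above. Gm26917 is likewise counted among the lincRNA models. Median log2 differences were 0.59, 0.49 and 0.41. Of 1315 lincRNA models, the type of Gm26917, 28 rose and 64 fell, with a median of -0.54, and of 17474 protein-coding genes 3460 rose and 1547 fell, with a median of -0.01. The median level was 8.33 normalized counts for snoRNA models and 3.62 for lincRNA models, so most rest on few reads.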
